A study of Mus musculus with 9 samples.

Results

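Dendritic epidermal T cells are the resident T cells of mouse epidermis, and 39 genes known from these cells were followed here in bulk RNA sequencing of epidermal sheets from mouse ear skin. The members were chosen by gene symbol, and each of the 39 symbols matched 1 of the 52550 genes of the deposited epidermis count table. The study applied imiquimod (IMQ), an agonist of Toll-like receptor 7 that induces psoriasis-like dermatitis, and asked what Xiao-Yin-Fang (XYF), an herbal decoction, changed. There were 3 groups of 3 libraries. All mice were C57BL/6, wild type and 8 weeks of age by the labels, and the study's methods give the strain as C57BL/6J. The VAS+H2O group had Vaseline on the skin for 5 days and ddH2O by gavage for 10 days, and the IMQ+H2O group had imiquimod cream in place of Vaseline. The IMQ+XYF group had imiquimod cream and 200 μl of XYF decoction at 23.3 mg/g by gavage over the same days. The study's methods state that RNA came from intact ear sheets of 2 mice and do not say whether this means each library, so the number of mice behind a library is not known, and p-values measure the spread between libraries, which may be technical. Sources differ on the gavage, given once daily in the methods and more often in the figure legends.

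Dendritic epidermal T cells seed the fetal epidermis from the thymus and maintain themselves there. Nearly all of them carry the same gamma-delta T cell receptor, made of the Vgamma5 chain and the Vdelta1 chain, together with the CD3 chains that pass the signal into the cell. They sit between keratinocytes, held by the integrin CD103, sense stressed keratinocytes through the receptor and through NK-type receptors such as NKG2D, and release growth factors, chemokines and cytotoxic proteins.

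The level of these genes was low in whole epidermis, and 37 of the 39 members had counts. Fasl, the death ligand of cytotoxic lymphocytes, and Gimap3 had 0 counts in all 9 libraries, which allows up to 3 counts or 0.0463 to 0.0990 CPM (counts per 1000000 counts of the library) in a library, for counting error only. Txk, a Tec family kinase, and Gimap4 had 68 and 72 counts over the 9 libraries and were below the count filter, so 35 members were tested in each comparison. Total counts were 30298275 to 64771160 per library. CPM values below were scaled by the TMM method of edgeR. In markers of other cells, 3 libraries stood apart from their group. VAS+H2O replicate 2 had a summed level of 980.7 CPM for the dermal fibroblast and cartilage markers, against 217.3 and 261.5 CPM in the other two. IMQ+H2O replicate 3 had 38.0 CPM and IMQ+XYF replicate 1 had 22.9 CPM of Csf3r, a neutrophil receptor, against 0.173 to 6.10 CPM in the other libraries of mice given imiquimod.

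The label was checked against the receptor genes, only 2 of which are members. Trdv4, the delta variable segment that encodes the Vdelta1 chain, had 1301 counts over the 9 libraries. The other Trdv genes of the table had 18 counts (Trdv5), 4 counts (Trdv2-2) or 0 counts (Trdv1, Trdv2-1 and Trdv3). Tcrg-V5, the gamma variable segment of the Vgamma5 chain, had 868 counts, against 139 for Trgv2, 62 for Tcrg-V4, 17 for Tcrg-V6 and 2 for Tcrg-V7. So the receptor segments that mark dendritic epidermal T cells had the most counts among the gamma and delta variable segments named here. Il17a and Ccr6, which mark IL-17-producing T cells, had 0 counts in all 9 libraries, and the NK cell gene Ncr1 reached at most 0.0694 CPM. Of the alpha-beta T cell genes, Trac was at 0 to 0.849 CPM, Cd4 at 0 to 0.719 CPM and Cd8a at 0 to 0.0634 CPM, whereas Trbc2 was at 6.73 to 13.1 CPM.

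Levels of different genes were compared only per kilobase of exon, as the mean CPM of a group divided by the joined exon length of the gene. In the VAS+H2O group, Trdv4 was at 11.7 CPM per kb, Trdc, the delta constant gene, at 5.15, Cd3g at 4.61, Cd3e at 2.77, Cd247 at 1.78 and Cd3d at 1.43. Bcl11b at 22.9 CPM per kb and Thy1 at 17.8 CPM per kb stood above every receptor chain. Both are T cell genes that other skin cells also use, Bcl11b as a transcription factor of keratinocytes and Thy1 as a surface protein of fibroblasts. Cd7, an immunoglobulin family protein of T cells, followed at 15.2 CPM per kb and Ccr4, a skin-homing receptor, at 8.46. The lower end held Cd69 at 0.110, Gimap4 at 0.0914 and Txk at 0.0217 CPM per kb.

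The CD3 genes are shown with their promoters, since they moved together in the comparisons below and Cd3d, Cd3e and Cd3g form 1 cluster on chromosome 9. Cd3g (9:44969572-44980431, minus strand) and Cd3d (9:44981786-44987339, plus strand) start 1355 bases apart and point away from each other in the GENCODE annotation of GRCm38, and Cd3e (9:44998740-45009627, minus strand) lies next to them. Cd247, the zeta chain, is on chromosome 1 at 165788681-165877277. Xcl1, also on chromosome 1, is shown beside them because it had the lowest ratio to the VAS+H2O group of all tested members. The 250 bases before the RefSeq start of each gene are printed 5′ to 3′ on the strand of the gene, from RefSeq on GRCm38.p6. Capitals mark AGGAAG, the core of many sites of ETS factors, and TGTGGT, the core of RUNX sites, each on either strand (CTTCCT and ACCACA are their reverse complements).
Cd3g, chr9:44980432-44980681, minus strand: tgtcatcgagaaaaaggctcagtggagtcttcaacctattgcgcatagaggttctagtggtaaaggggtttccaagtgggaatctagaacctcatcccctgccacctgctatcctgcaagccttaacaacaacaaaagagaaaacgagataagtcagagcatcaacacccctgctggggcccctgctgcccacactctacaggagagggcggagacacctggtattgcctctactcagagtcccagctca
Cd3d, chr9:44981536-44981785, plus strand: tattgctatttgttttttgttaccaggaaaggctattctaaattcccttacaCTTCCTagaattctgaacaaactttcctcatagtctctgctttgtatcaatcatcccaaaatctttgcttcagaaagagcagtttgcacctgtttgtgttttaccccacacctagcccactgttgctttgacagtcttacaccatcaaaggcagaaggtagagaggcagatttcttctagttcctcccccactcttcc
Cd3e, chr9:45009612-45009861, minus strand: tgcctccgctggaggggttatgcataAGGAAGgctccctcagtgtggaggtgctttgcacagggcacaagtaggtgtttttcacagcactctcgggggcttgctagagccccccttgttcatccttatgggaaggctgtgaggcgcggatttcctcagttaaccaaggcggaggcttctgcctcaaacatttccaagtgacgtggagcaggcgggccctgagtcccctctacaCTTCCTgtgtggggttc
Cd247, chr1:165788431-165788680, plus strand: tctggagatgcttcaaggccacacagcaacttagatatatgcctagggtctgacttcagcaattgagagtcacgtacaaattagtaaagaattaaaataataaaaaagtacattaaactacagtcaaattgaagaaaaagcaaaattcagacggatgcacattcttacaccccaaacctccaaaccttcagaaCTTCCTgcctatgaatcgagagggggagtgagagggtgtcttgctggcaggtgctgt
Xcl1, chr1:164935523-164935772, minus strand: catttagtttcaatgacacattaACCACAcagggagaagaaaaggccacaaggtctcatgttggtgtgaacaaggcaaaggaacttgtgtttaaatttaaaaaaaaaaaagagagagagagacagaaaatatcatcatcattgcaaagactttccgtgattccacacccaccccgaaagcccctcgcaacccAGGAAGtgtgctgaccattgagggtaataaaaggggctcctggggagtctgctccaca
The ETS core occurred once in the windows of Cd3d, Cd247 and Xcl1, at 2 places in that of Cd3e and not in that of Cd3g, and the RUNX core occurred only in the window of Xcl1 among these 5. The ETS core is present in 29.5% of the 32851 RefSeq promoter windows of this length and the RUNX core in 14.0%. The RefSeq table held windows for 25 of the 39 members, 32 windows in all, of which 23 had the ETS core, 13 had the RUNX core and 1 had the TATA box letters TATAAA, which 12.4% of all windows hold. A match describes the letters of the window and not a bound site.

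Imiquimod was followed first, in IMQ+H2O against VAS+H2O. The 4 CD3 genes fell, from 1.66-fold lower for Cd3e to 2.09-fold lower for Cd3d, as did Cd2, Ctsw and Tox, while Thy1 rose 2.36-fold. Of the 35 tested members, 8 passed an adjusted p of 0.05 (22.9%), against 22.1% of the 18009 genes tested, so the share of changed members was near that of all genes. By direction, 7 members fell (20%, against 9.41% of all genes) and 1 rose (2.86%, against 12.7% of all genes). DEGs, which also had a log2 fold change of 1 or more in size, numbered 4 (11.4%, against 7.68% of all genes). They were Cd3d, Ctsw and Tox, which fell (4.04% of all genes did), and Thy1, which rose (3.64% of all genes did). The libraries of both groups did not overlap for 15 members (42.9%, against 45.0% of all genes), 14 of them lower with imiquimod (40.0%, against 21.6%) and 1 higher (against 23.4%). DESeq2 called 11 of 36 members (30.6%, against 25.0% of all genes). The log2 fold change was below 0 in 24 and above 0 in 11 of the 35, with a median of −0.44, beside a median of −0.03 over all genes tested. CPM is a share of the library. In bulk epidermis, fewer cells of a type, less RNA per cell and more RNA from other cells cannot be told apart.

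These counts changed when 1 library was left out, and so did those of all genes. Of the tested members, 1 passed without VAS+H2O replicate 1, 2 without VAS+H2O replicate 2, 4 without VAS+H2O replicate 3, 1 without IMQ+H2O replicate 1, 8 without IMQ+H2O replicate 2 and 3 without IMQ+H2O replicate 3. Over all genes, 1782 of 18319, 1446 of 18608 and 2920 of 18719 passed without each VAS+H2O library in turn. Without each IMQ+H2O library in turn, 2148 of 18799, 3077 of 18506 and 2131 of 18439 passed. With no library left out, 3986 of 18009 genes passed. Thy1 passed in all 6 of these fits, Cd247 in 3, Cd3e and Tox in 2, Cd3d, Cd3g and Ctsw in 1 and Cd2 in none. The direction of each of these 8 members was the same in all 6 fits.

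**Figure D1:**
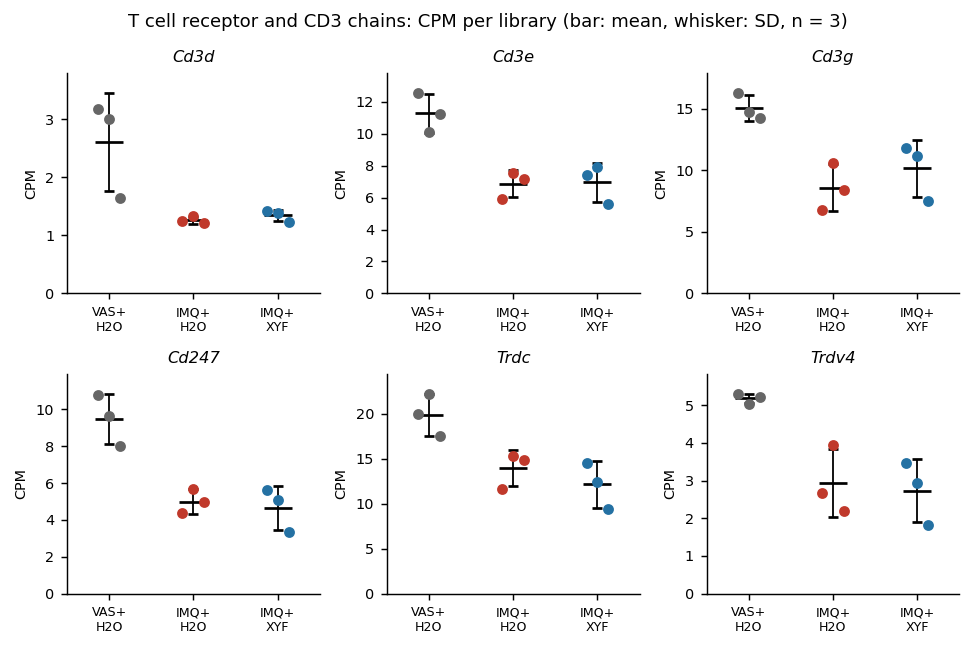
CPM per library of the 6 members of the T cell receptor and CD3 complex in the VAS+H2O, IMQ+H2O and IMQ+XYF groups, on axes that start at 0. Points are libraries in replicate order, horizontal bars are means and whiskers are SD (n = 3). In all 6 panels the VAS+H2O libraries lie above every library of the other groups.

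Cd3e, the epsilon chain of CD3, was at 12.5, 10.1 and 11.3 CPM in the VAS+H2O libraries, 5.94, 7.54 and 7.17 CPM in the IMQ+H2O libraries and 7.40, 7.89 and 5.58 CPM in the IMQ+XYF libraries. Cd3g, the gamma chain of CD3, was at 16.2, 14.7 and 14.2 CPM, then 6.77, 10.6 and 8.35 CPM, then 11.8, 11.1 and 7.46 CPM in the same order. For both genes every VAS+H2O library was above every library of mice given imiquimod, and the groups given imiquimod overlapped. Cd3e fell in IMQ+H2O against VAS+H2O by 0.73 on the log2 scale (SE 0.155, adjusted p = 0.0209), and Cd3g fell by 0.82 (SE 0.182, adjusted p = 0.0236).

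Cd247, the zeta chain that carries most of the signalling motifs of the receptor, was at 10.8, 9.64 and 8.03 CPM in the VAS+H2O libraries, 4.35, 5.67 and 4.98 CPM in the IMQ+H2O libraries and 5.61, 5.06 and 3.33 CPM in the IMQ+XYF libraries. Cd3d, the delta chain of CD3, was at 3.17, 3.002 and 1.63 CPM, then 1.24, 1.33 and 1.20 CPM, then 1.41, 1.39 and 1.23 CPM. The third VAS+H2O library was low for Cd3d, near the libraries of the other groups but above them. Cd247 fell by 0.94 on the log2 scale (SE 0.179, adjusted p = 0.0162) and Cd3d by 1.06 (SE 0.302, adjusted p = 0.0465). Exons of Cd247 overlap those of Pou2f1 on the opposite strand, which had 16409 counts over the libraries against 2304 for Cd247, and the strand setting of the counting is not stated, so reads of the pair may not have been told apart.

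Trdc was at 20.04, 22.2 and 17.5 CPM in the VAS+H2O libraries, 11.6, 15.3 and 14.9 CPM in the IMQ+H2O libraries and 14.6, 12.5 and 9.43 CPM in the IMQ+XYF libraries. Trdv4 was at 5.29, 5.03 and 5.22 CPM, then 2.66, 3.95 and 2.20 CPM, then 3.46, 2.93 and 1.82 CPM. The groups given imiquimod again lay below all VAS+H2O libraries, and for Trdv4 the VAS+H2O libraries were close together. The differences of IMQ+H2O from VAS+H2O missed the threshold, with a log2 fold change of −0.53 for Trdc (95% interval −0.90 to −0.16, adjusted p = 0.0518) and −0.83 for Trdv4 (−1.41 to −0.26, adjusted p = 0.0509). The gamma chain genes are not members. Tcrg-C1, a gamma constant gene, fell by 0.81 (SE 0.203, adjusted p = 0.0333), and Tcrg-V5 had a log2 fold change of −0.90 (adjusted p = 0.0640). The summed CPM of the gamma chain segments was 15.5 to 18.5 in the VAS+H2O libraries and 7.46 to 11.4 in the IMQ+H2O libraries.

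None of the 6 tested members of proximal receptor signalling passed the threshold. Zap70, the kinase that binds the phosphorylated CD3 chains, was at 2.22, 3.03 and 2.78 CPM in the VAS+H2O libraries, 1.76, 1.82 and 1.32 CPM in the IMQ+H2O libraries and 1.71, 1.57 and 1.45 CPM in the IMQ+XYF libraries. The VAS+H2O libraries did not overlap the others, and the log2 fold change of IMQ+H2O against VAS+H2O was −0.73 (95% interval −1.29 to −0.16, adjusted p = 0.0707). Lck, the kinase upstream of Zap70, had a log2 fold change of −0.13 (−0.59 to 0.34), and the adaptor Lat had −0.38 (−0.97 to 0.20). Lcp2, the adaptor SLP-76, which neutrophils also use, was at 3.81 to 4.36 CPM in the VAS+H2O libraries and at 2.80, 3.59 and 8.54 CPM in the IMQ+H2O libraries. Its high library, IMQ+H2O replicate 3, was also the one with the high level of Csf3r. The same held in the IMQ+XYF group, where replicate 1 had 7.93 CPM of Lcp2 and the other two had 3.21 and 3.25 CPM. The part of neutrophil RNA in these levels was not tested. Ptpn22, a phosphatase that restrains the receptor, had a log2 fold change of 0.06 (−0.34 to 0.46), and Sh2d2a, an adaptor induced in activated T cells, one of −0.28 (−0.99 to 0.43).

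**Figure D2:**
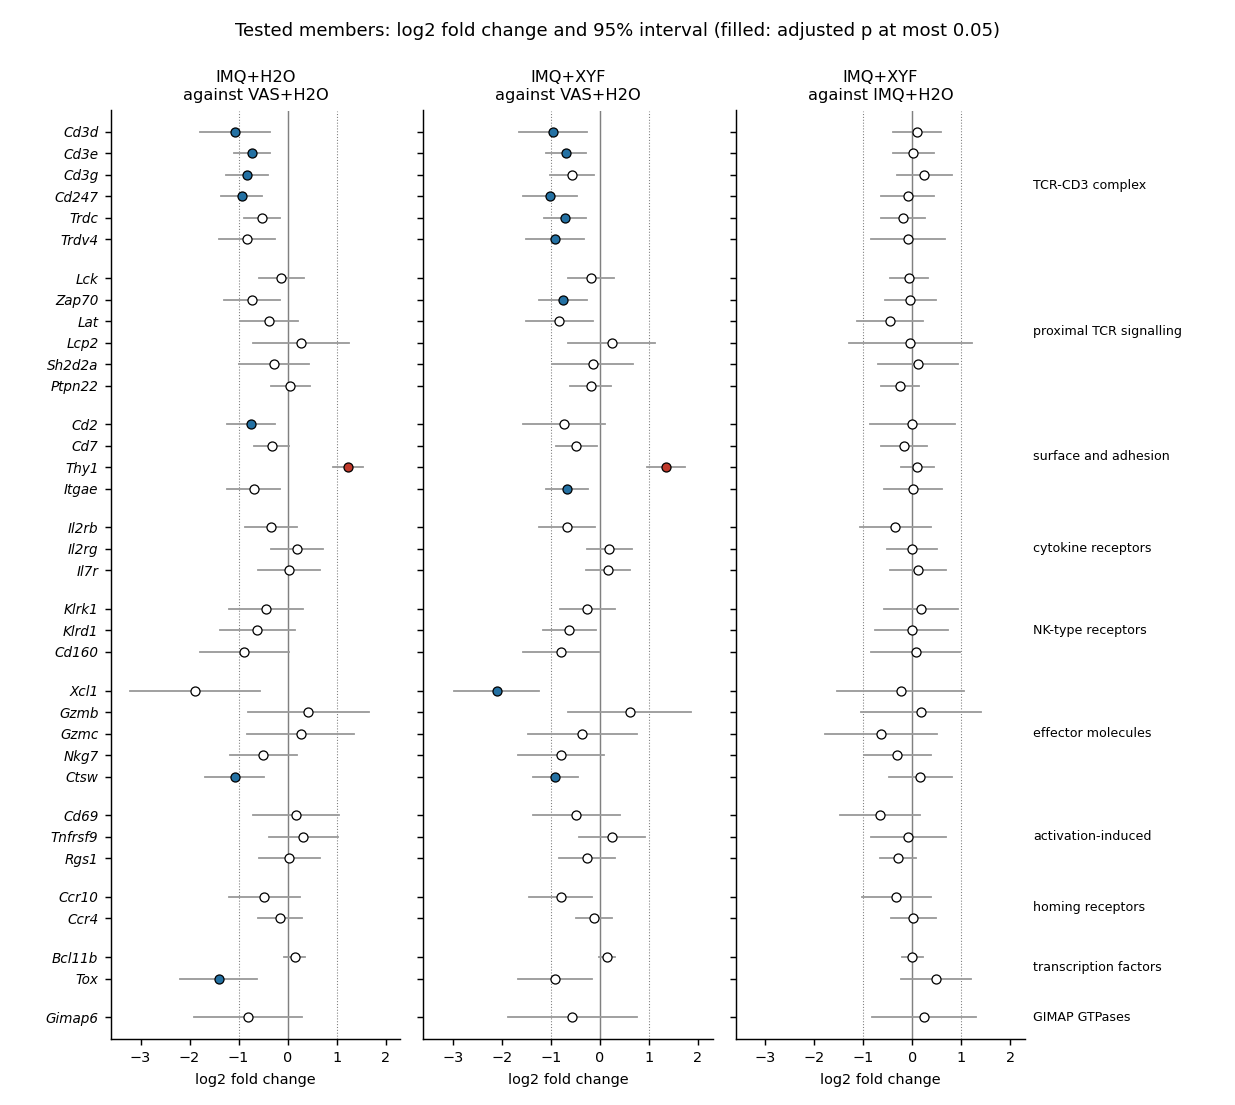
Log2 fold changes of the 35 tested members, ordered by role, in the 3 comparisons. Points are edgeR estimates, lines are 95% intervals, filled points passed an adjusted p of 0.05 (blue lower, red higher) and dotted lines mark a log2 fold change of 1. Against VAS+H2O, 8 points are filled for IMQ+H2O and 10 for IMQ+XYF, and none is filled for IMQ+XYF against IMQ+H2O.

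Surface and adhesion members moved in both directions. Thy1, the GPI-anchored protein by which these cells were first recognised, was at 48.7, 48.9 and 62.8 CPM in the VAS+H2O libraries, 124.5, 116.5 and 140.8 CPM in the IMQ+H2O libraries and 117.2, 166.2 and 125.8 CPM in the IMQ+XYF libraries. All libraries of mice given imiquimod were above all VAS+H2O libraries. Thy1 rose by 1.24 on the log2 scale (SE 0.129, adjusted p = 0.00575), while the CD3 genes of the same libraries fell. Of the 10 dermal fibroblast and cartilage markers, 0 rose and 5 fell in the same comparison. Their sum was 980.7 CPM in VAS+H2O replicate 2, against 217.3 and 261.5 CPM in the other VAS+H2O libraries. Which cells the rise of Thy1 came from was not tested. Cd2, an adhesion receptor of T and NK cells, was at 2.03, 2.15 and 2.01 CPM, then 1.17, 1.27 and 1.27 CPM, then 1.76, 1.26 and 0.655 CPM. The IMQ+H2O libraries were all below the VAS+H2O libraries and the IMQ+XYF libraries were spread widely. Cd2 fell by 0.75 on the log2 scale (SE 0.204, adjusted p = 0.0422), and DESeq2 gave an adjusted p of 0.0856. Itgae, the alpha chain of CD103 that binds E-cadherin of keratinocytes, had a log2 fold change of −0.69 (95% interval −1.23 to −0.16, adjusted p = 0.0688), and Cd7 one of −0.32 (−0.68 to 0.04). For both genes the IMQ+H2O libraries lay below all VAS+H2O libraries.

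**Figure D3:**
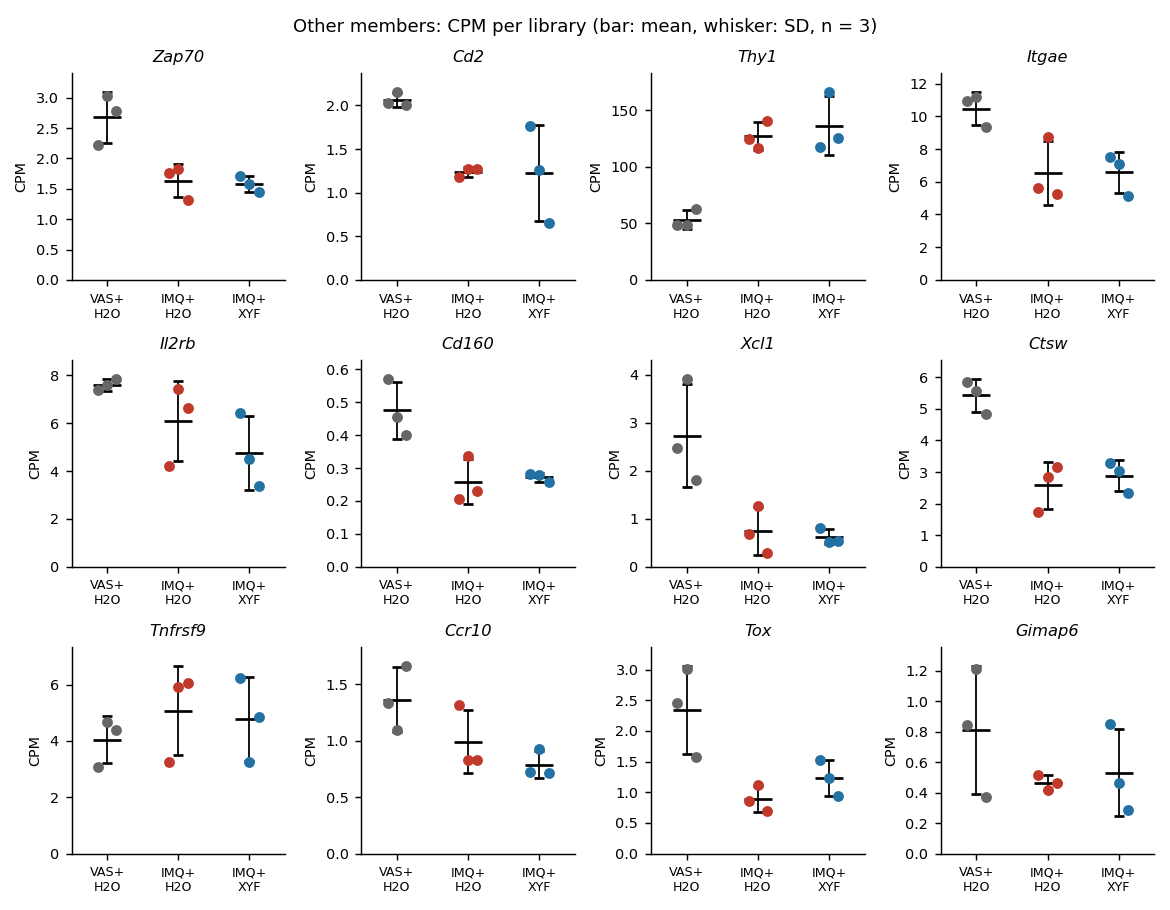
CPM per library of members outside the receptor complex in the 3 groups, on axes that start at 0. Points are libraries in replicate order, horizontal bars are means and whiskers are SD (n = 3). Thy1 is above the VAS+H2O libraries in all libraries of mice given imiquimod, whereas Xcl1 and Ctsw are below them.

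Receptors for cytokines and NK-type receptors did not pass. Il2rb, the beta chain shared by the receptors for IL-2 and IL-15, was at 7.38, 7.58 and 7.85 CPM in the VAS+H2O libraries, 4.21, 7.43 and 6.64 CPM in the IMQ+H2O libraries and 6.44, 4.50 and 3.36 CPM in the IMQ+XYF libraries, so VAS+H2O and IMQ+H2O overlapped. Its log2 fold change in IMQ+H2O was −0.33 (95% interval −0.86 to 0.20). Il2rg, the common gamma chain, and Il7r, the receptor for IL-7, had 0.20 (−0.33 to 0.73) and 0.04 (−0.60 to 0.67). Cd160, a receptor for HVEM and MHC class I, was at 0.571, 0.455 and 0.401 CPM, then 0.207, 0.338 and 0.231 CPM, then 0.283, 0.277 and 0.256 CPM. The VAS+H2O libraries lay above the others, but the gene had 121 counts in all and its log2 fold change of −0.88 had an adjusted p of 0.140. Exons of Cd160 also overlap Pdzk1 on the opposite strand, which had 517 counts. Klrk1, which encodes NKG2D, had a log2 fold change of −0.44 (−1.20 to 0.31), and Klrd1, which encodes CD94, one of −0.62 (−1.38 to 0.14).

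Among the effector molecules, Ctsw fell and the others did not pass. Ctsw, the cathepsin of cytotoxic lymphocytes, was at 5.86, 5.58 and 4.84 CPM in the VAS+H2O libraries, 1.73, 2.86 and 3.15 CPM in the IMQ+H2O libraries and 3.30, 3.02 and 2.34 CPM in the IMQ+XYF libraries. It fell by 1.08 on the log2 scale (SE 0.256, adjusted p = 0.0280). Exons of Ctsw overlap those of Fibp on the opposite strand, which had 14695 counts against 1316 for Ctsw. Xcl1, the chemokine for XCR1+ dendritic cells, was at 2.47, 3.91 and 1.81 CPM, then 0.691, 1.27 and 0.278 CPM, then 0.801, 0.524 and 0.541 CPM. No library of mice given imiquimod reached the lowest VAS+H2O library. The log2 fold change of Xcl1 in IMQ+H2O was −1.89 (95% interval −3.21 to −0.56), with an adjusted p of 0.0534 by edgeR and 0.00693 by DESeq2. Gzmb and Gzmc, granzymes of cytotoxic granules, were at 0.201 to 0.858 CPM in the VAS+H2O and IMQ+H2O libraries, and their log2 fold changes of 0.42 (−0.81 to 1.66) and 0.27 (−0.83 to 1.36) were not distinguishable from 0. Nkg7, a protein of the same granules, had a log2 fold change of −0.50 (−1.19 to 0.19).

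Activation-induced members and homing receptors did not pass. Tnfrsf9, the costimulatory receptor 4-1BB, was at 3.09, 4.67 and 4.39 CPM in the VAS+H2O libraries, 3.25, 5.93 and 6.06 CPM in the IMQ+H2O libraries and 6.22, 3.24 and 4.84 CPM in the IMQ+XYF libraries. The groups overlapped, and the log2 fold change in IMQ+H2O was 0.32 (95% interval −0.38 to 1.02). Cd69, an early activation marker that holds T cells in tissue, had 0.17 (−0.70 to 1.05), and Rgs1, a regulator of G protein signalling, had 0.03 (−0.59 to 0.65). Ccr10, a receptor that guides cells to the epidermis, was at 1.33, 1.09 and 1.66 CPM, then 1.31, 0.832 and 0.833 CPM, then 0.722, 0.925 and 0.712 CPM. IMQ+H2O replicate 1 lay within the range of the VAS+H2O libraries, and the log2 fold change was −0.48 (−1.20 to 0.25). Ccr4 had −0.15 (−0.60 to 0.30).

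Of the transcription factors, Tox fell and Bcl11b did not pass. Tox, an HMG-box factor of T cell development, was at 2.452, 3.002 and 1.58 CPM in the VAS+H2O libraries, 0.863, 1.12 and 0.694 CPM in the IMQ+H2O libraries and 1.52, 1.23 and 0.940 CPM in the IMQ+XYF libraries. All libraries of mice given imiquimod lay below the VAS+H2O libraries, IMQ+XYF replicate 1 by little, and the groups given imiquimod overlapped. Tox fell by 1.41 on the log2 scale in IMQ+H2O (SE 0.332, adjusted p = 0.0278). Bcl11b was at 176.3 to 190.6 CPM in the VAS+H2O libraries and 184.4 to 218.1 CPM in the IMQ+H2O libraries, with a log2 fold change of 0.14 (95% interval −0.07 to 0.36). Gimap6, of a family of GTPases that support lymphocyte survival, was at 0.846, 1.21 and 0.373 CPM, then 0.518, 0.416 and 0.463 CPM, then 0.848, 0.462 and 0.285 CPM, and all libraries of the other groups but IMQ+XYF replicate 3, which was lower, lay within the VAS+H2O range.

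The level of each member was also set against the CD3 genes of the same library, as its log2 CPM minus the mean log2 CPM of Cd3d, Cd3e, Cd3g and Cd247, with no test. The CD3 mean was 3.001 ± 0.214 for the VAS+H2O libraries, 2.15 ± 0.181 for the IMQ+H2O libraries and 2.20 ± 0.278 for the IMQ+XYF libraries (SD, n = 3). A gene that kept its level would therefore show a difference near 0.86 between IMQ+H2O and VAS+H2O. Trdv4 (0.00), Cd2 (0.14), Itgae (0.15) and Zap70 (0.16) showed small differences, and their IMQ+H2O libraries overlapped the VAS+H2O libraries on this scale. Trdc differed by 0.34, and its libraries did not overlap. Lck (0.76), Rgs1 (0.94), Ptpn22 (0.93) and Bcl11b (1.01) were near the value of a gene that kept its level. Thy1 differed by 2.11. Xcl1 (−1.09) and Tox (−0.47) were lower relative to CD3, and their IMQ+H2O libraries did not overlap the VAS+H2O libraries on this scale.

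**Figure D4:**
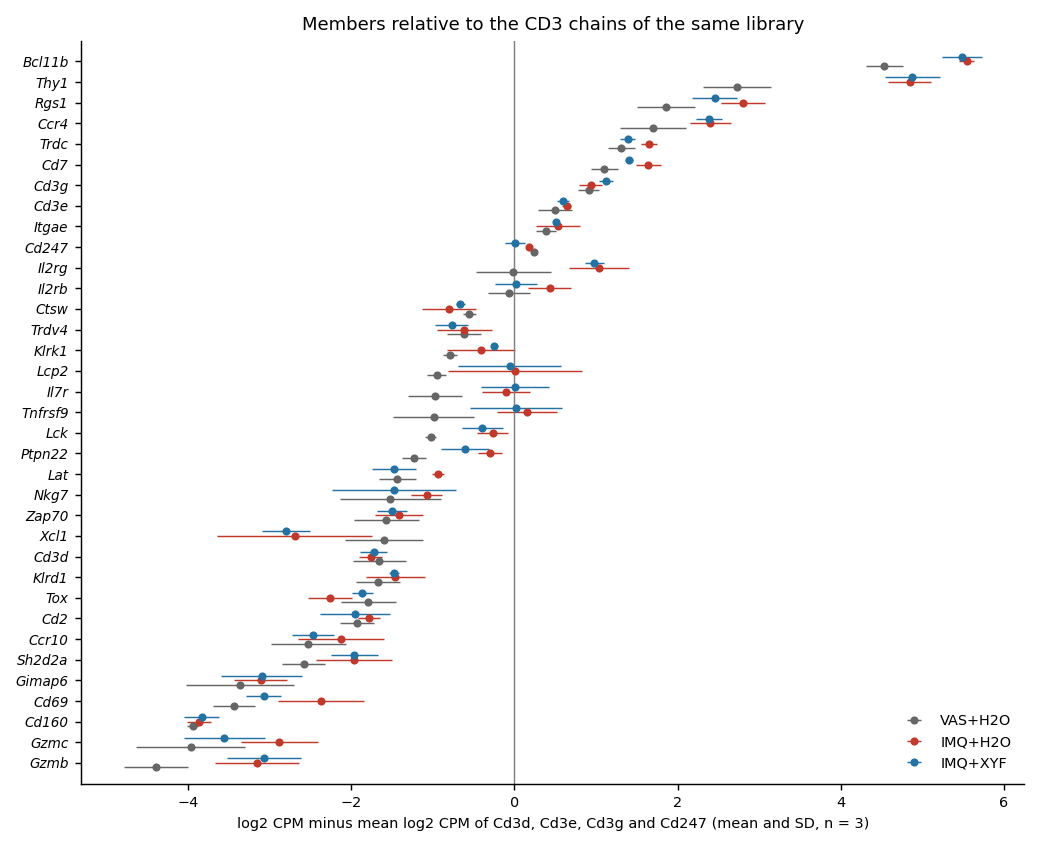
Log2 CPM of each tested member minus the mean log2 CPM of Cd3d, Cd3e, Cd3g and Cd247 in the same library, as mean and SD of 3 libraries per group. Members are ordered by their VAS+H2O value, and the line at 0 is the CD3 mean. Thy1 and Bcl11b, among other members, are shifted to the right in both groups given imiquimod, and Xcl1 to the left. The shift of Bcl11b (1.01 in IMQ+H2O against VAS+H2O) is near that of a gene that kept its level.

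XYF was then compared with water in mice given imiquimod. No tested member passed the threshold in IMQ+XYF against IMQ+H2O (0 of 35, against 0.0281% of the 17793 genes tested), and none had an unadjusted p under 0.05 by edgeR (5.43% of all genes did). DESeq2 gave an adjusted p to 34 members and called 0 of them (0.966% of all genes). The groups did not overlap for 1 member (2.86%, against 10.7% of all genes), Ptpn22, which was lower in IMQ+XYF, as 4.68% of all genes were. Its levels were 3.42, 3.61 and 3.63 CPM in the IMQ+H2O libraries and 3.36, 2.65 and 2.91 CPM in the IMQ+XYF libraries, with a log2 fold change of −0.25 (95% interval −0.64 to 0.14).

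The intervals show what these libraries could distinguish. The log2 fold change was 0.02 for Cd3e (−0.40 to 0.44), 0.25 for Cd3g (−0.31 to 0.80), −0.09 for Cd247 (−0.63 to 0.45) and 0.10 for Cd3d (−0.39 to 0.59). For Trdc it was −0.19 (−0.65 to 0.27) and for Trdv4 −0.09 (−0.85 to 0.67). These intervals do not reach a 2-fold difference in either direction, and smaller differences could not be resolved. For Xcl1, at 0.278 to 1.27 CPM in all 6 libraries, the interval was −1.53 to 1.06. The 3 members with the smallest p were Cd69, Rgs1 and Lat. Cd69 was at 0.967, 0.598 and 0.902 CPM in the IMQ+H2O libraries and 0.660, 0.462 and 0.399 CPM in the IMQ+XYF libraries, with a log2 fold change of −0.67 (−1.48 to 0.15, adjusted p = 0.992). Rgs1 was at 26.5, 29.3 and 37.5 CPM against 23.2, 28.5 and 24.0 CPM, with a log2 fold change of −0.30 (−0.67 to 0.07, adjusted p = 0.993). Lat was at 1.90, 2.73 and 2.24 CPM against 2.23, 1.48 and 1.25 CPM, with a log2 fold change of −0.45 (−1.13 to 0.22, adjusted p = 0.9999). The groups overlapped for all 3.

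In IMQ+XYF against VAS+H2O, which shares its control libraries with the first comparison, 10 of the 35 tested members passed (28.6%, against 28.7% of the 17954 genes tested). Of these, 9 fell (25.7%, against 12.0% of all genes) and Thy1 rose (2.86%, against 16.7% of all genes). The groups did not overlap for 20 members (57.1%, against 47.5% of all genes), of which 18 were lower (51.4%, against 22.4%) and 2 higher, Thy1 and Bcl11b (5.71%, against 25.1%). DESeq2 called 12 of 36 members (33.3%, against 30.3% of all genes). The log2 fold change was −0.70 for Cd3e (SE 0.172, adjusted p = 0.0241), −0.95 for Cd3d (SE 0.291, adjusted p = 0.0494) and −1.02 for Cd247 (SE 0.228, adjusted p = 0.0175). For Cd3g it was −0.57 with an adjusted p of 0.0610. The receptor genes Trdc (−0.71, adjusted p = 0.0270) and Trdv4 (−0.91, adjusted p = 0.0345) passed here, as did Zap70 (−0.76, adjusted p = 0.0342) and Itgae (−0.67, adjusted p = 0.0329).

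Xcl1 fell by 2.11 on the log2 scale in that comparison (SE 0.362, adjusted p = 0.00694), and Ctsw fell by 0.91 (SE 0.189, adjusted p = 0.0137). Thy1 rose by 1.35 (SE 0.164, adjusted p = 0.00228). Xcl1, Ctsw and Thy1 each passed in all 6 fits that left out 1 library, Cd247 in 5, Cd3e and Trdc in 2, and Cd3d, Trdv4, Zap70 and Itgae in 1. Of all tested members, 4 passed without VAS+H2O replicate 1, 5 without VAS+H2O replicate 2, 9 without VAS+H2O replicate 3, 8 without IMQ+XYF replicate 1, 5 without IMQ+XYF replicate 2 and 4 without IMQ+XYF replicate 3. Over all genes, 3785 of 18401, 3849 of 18386 and 4544 of 18574 passed without each VAS+H2O library in turn. Without each IMQ+XYF library in turn, 3459 of 18509, 3684 of 18590 and 3221 of 18512 passed. Tox (−0.92, adjusted p = 0.0699) and Cd2 (−0.73, adjusted p = 0.167), which fell in IMQ+H2O, did not pass here, and the difference between the groups given imiquimod did not pass for either gene. DEGs were Cd247 and Xcl1, which fell (3.05% of all genes did), and Thy1, which rose (4.58% of all genes did), 3 members or 8.57% against 7.64% of all genes.

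Markers of other cells moved with the treatment. The summed CPM of the neutrophil and monocyte list was 21.9 to 24.2 in the VAS+H2O libraries, 286.9 to 2186 in the IMQ+H2O libraries and 595.9 to 924.5 in the IMQ+XYF libraries, and 3 of its 6 tested genes rose in IMQ+H2O. S100a8 and S100a9 made up most of the sum in mice given imiquimod. Without them it was 16.9 to 19.5, 56.6 to 151.9 and 69.2 to 103.8 CPM. In IMQ+H2O replicate 1, Cxcr2 was 49.2 of these 56.6 CPM and Csf3r was at 0.173 CPM. Cxcr2 was also at 10.6 to 12.6 CPM in the VAS+H2O libraries, where Csf3r was at most 0.0910 CPM. The list is therefore not a measure of neutrophils alone. The dermal fibroblast and cartilage list was at 217.3 to 980.7, 81.5 to 114.0 and 177.1 to 367.0 CPM, with its highest value in VAS+H2O replicate 2, and 5 of its 10 genes fell in IMQ+H2O. The Langerhans cell list was at 691.1 to 811.0, 643.2 to 873.8 and 665.7 to 734.1 CPM, and the alpha-beta T cell list at 9.98 to 12.9, 10.6 to 15.1 and 10.1 to 16.2 CPM, with 0 of 7 and 0 of 4 tested genes past the threshold in IMQ+H2O. Trbc2, at 6.73 to 13.1 CPM, made up most of the alpha-beta sum. Trac, with 123 counts in all, was at 0.423 to 0.849, 0 to 0.338 and 0.154 to 0.393 CPM, lower in all libraries of mice given imiquimod. The NK cell list summed to at most 0.233 CPM. The endothelial list was at 9.43 to 12.8, 4.44 to 7.56 and 3.73 to 8.81 CPM, lower in all libraries of mice given imiquimod, as the CD3 genes were, and 1 of its 5 genes, Vwf, fell in IMQ+H2O. The keratinocyte list was at 36490 to 47150, 49130 to 60560 and 49490 to 54720 CPM, with 2 of its 5 genes, Krt1 and Krt14, past the threshold upward in IMQ+H2O. The summed CPM of Cd3d, Cd3e, Cd3g and Cd247 was 35.1 to 42.7, 18.3 to 25.1 and 17.6 to 26.2 CPM. The part of the other cells' RNA in the member levels was not tested.

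**Figure D5:**
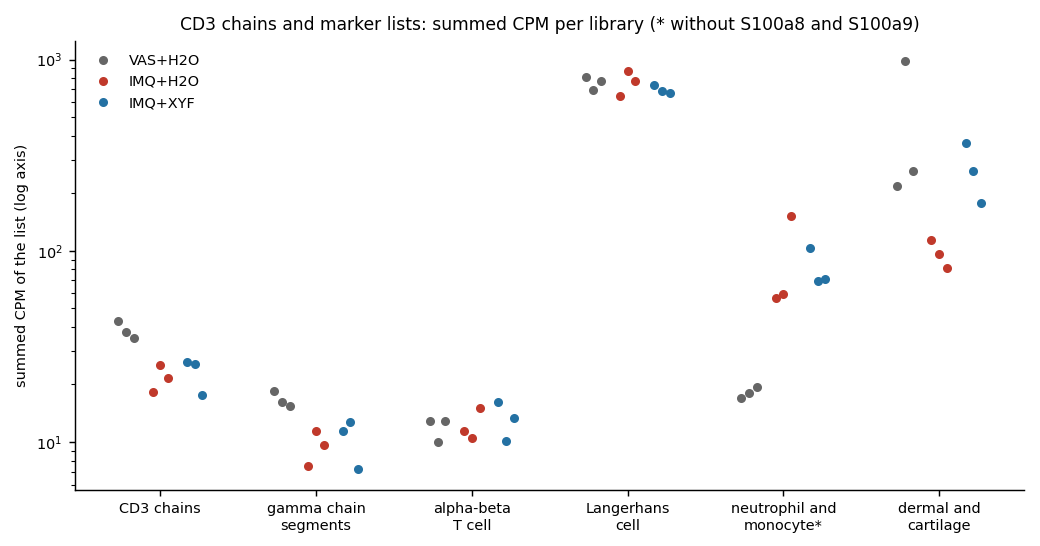
Summed CPM per library, on a log axis, of the 4 CD3 genes, the gamma chain segments and marker lists of other cells, with 3 points per group. The neutrophil and monocyte list is drawn without S100a8 and S100a9. The CD3 and gamma chain sums are lower in all libraries of mice given imiquimod than in the VAS+H2O libraries, the neutrophil and monocyte sums are higher, and 1 VAS+H2O library is high for the dermal and cartilage list.

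With VAS+H2O replicate 2, IMQ+H2O replicate 3 and IMQ+XYF replicate 1, the libraries that stood apart, left out, in a choice made after seeing the data and with 2 libraries a group, 1 member passed in IMQ+H2O against VAS+H2O (Thy1, log2 fold change 1.11, adjusted p = 0.0290) and 2 in IMQ+XYF against VAS+H2O (Thy1 and Xcl1). Over all genes, 1014 of 18079 and 2105 of 18052 passed in the same 2 comparisons. The CD3 genes kept their direction in that fit of IMQ+H2O against VAS+H2O, with log2 fold changes of −0.83 for Cd3e, −0.81 for Cd3g, −0.91 for Cd247 and −0.92 for Cd3d and adjusted p of 0.0720, 0.122, 0.0940 and 0.220.

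Other genes of T cell signalling were counted from a list of 38. In IMQ+H2O against VAS+H2O, 31 were tested, 2 rose and 4 fell, beside 12.7% and 9.41% of all genes, and the median log2 fold change was −0.30. Cd96, a receptor for nectins on T and NK cells, fell by 0.94 on the log2 scale (SE 0.180, adjusted p = 0.0163), a change near that of Cd247. Cd28, the costimulatory receptor, fell by 2.09 (SE 0.539, adjusted p = 0.0360) but passed in 1 of the 6 fits that left out 1 library. It was highest in VAS+H2O replicate 2 at 3.18 CPM, and its log2 fold change was −1.41 without that library. Gata3 and Nfatc2 fell by 0.73 and 0.84, Cd44 rose by 1.38 and Gimap9 rose by 0.71. Gata3 at 267.6 and Cd44 at 209.2 mean CPM in VAS+H2O are also genes of keratinocytes.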

How the data were processed

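The authors deposited whole-number counts per gene for 9 epidermis libraries, without normalization and with 1 column per library. The study's methods name STAR, GRCm38 with Ensembl release 90, StringTie and DESeq2, and the submitters' processing notes name FastQC, STAR 2.5, Cuffnorm and DESeq 1.22.1. The counting tool and its strand setting are not given in the sources used here. The labels call the libraries strand-specific, and the kit named in the methods does not mark strand.

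From these counts, each pair of groups was fitted on its 6 libraries with edgeR 4.0.16 in R 4.3.3 (quasi-likelihood test, glmQLFTest, with TMM and the filterByExpr defaults). Adjustment was by Benjamini-Hochberg over all genes tested. "Rose" and "fell" mean an adjusted p of at most 0.05, and DEGs also have a log2 fold change of 1 or more in size. Standard errors and 95% intervals come from the quasi-likelihood statistic. Log2 CPM used a prior count of 2. DESeq2 1.42.0 was an alternative, and the others were RLE scaling, other count filters, all 9 libraries in 1 fit, glmTreat, a replicate block and leaving out libraries. The scripts were tested on simulated data. Coordinates and exon lengths come from GENCODE vM21 (GRCm38).

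Members and lists were chosen with earlier results of these data known. Values in every library are given for the 6 receptor complex members, for the member with the smallest adjusted p of IMQ+H2O against VAS+H2O in each other role, for DEGs and for the 3 smallest p in IMQ+XYF against IMQ+H2O. Ptpn22 and Lcp2 were added after their values were seen. Depth was 30298275 to 64771160 counts per library. Libraries of a group differed by more than sampling noise. Intervals and the floor of 3 counts cover counting or model error only.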

Additional observations from a re-analysis of the deposited data

How the results depend on the processing

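The number of members past the adjusted p in IMQ+H2O against VAS+H2O, 8 by edgeR, was 11 by DESeq2, 9 with RLE scaling, 6 with no low-count filter, 10 where each library had to hold 10 counts, 9 with all 9 libraries in 1 fit and 1 to 8 with 1 library left out. In IMQ+XYF against VAS+H2O, 10 by edgeR, it was 12, 10, 6, 11, 9 and 4 to 9 in the same order. Without the libraries that stood apart it was 1 and 2. DEGs among the members numbered 1 to 5 in IMQ+H2O (4 in full, 1 without the libraries that stood apart) and 2 to 5 in IMQ+XYF (3 in full) with 1 library left out, and glmTreat against a log2 fold change of 1 called 0 members in each comparison, beside 65 and 162 of all genes (1383 and 1371 DEGs by the usual test). Over all genes, 1446 to 3077 passed in IMQ+H2O with 1 library left out and 1014 without the libraries that stood apart (3986 in full), and 3221 to 4544 and 2105 in IMQ+XYF against VAS+H2O (5152 in full). In IMQ+XYF against IMQ+H2O the count was 0 under every alternative run, the other lists held 1 called gene by edgeR and 8 by DESeq2, and of all genes 5 passed by edgeR and 165 by DESeq2.

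Deviations from the group means correlated between −0.133 and 0.105 for same-numbered libraries of different groups. For differently numbered libraries the range was −0.223 to 0.172. Pairing by replicate number was therefore not seen, but correlations over all genes cannot show that none existed. With the replicate number as a block, 5 members passed in IMQ+H2O and 6 in IMQ+XYF against VAS+H2O, with 3 DEGs in each, and 0 in IMQ+XYF against IMQ+H2O.

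Among the members given in every library by the rule, directions against VAS+H2O changed for Rgs1, whose log2 fold change in IMQ+H2O was −0.17 to 0.24 with 1 library left out and in IMQ+XYF was 0.0013 without the libraries that stood apart. In IMQ+XYF against IMQ+H2O, where no member passed, signs of these members changed when 1 library was left out for Cd3e (−0.080 to 0.15), Cd247 (−0.26 to 0.10), Trdv4 (−0.31 to 0.19), Zap70 (−0.18 to 0.050), Thy1 (−0.060 to 0.20), Cd160 (−0.057 to 0.11), Ctsw (−0.055 to 0.33), Tnfrsf9 (−0.33 to 0.13), Gimap6 (−0.32 to 0.52) and Xcl1 (−0.65 to 0.41). Without the libraries that stood apart it was −0.0035 for Cd3e and −0.32 for Gimap6. Ranges of other members with small changes also crossed 0, such as Lcp2 (−0.37 to 0.59 in IMQ+H2O against VAS+H2O). The cause was not tested. Members under 1 CPM, such as Cd160, Gzmb, Gzmc and Gimap6, had few counts, and differences in them were hard to detect at this depth.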

Other observations

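A list of 25 genes held ligands of the receptors of these cells, and also receptors such as Il15ra, Fas and Xcr1. Of the 21 in the count table, 15 were tested in IMQ+H2O against VAS+H2O, 5 rose and 0 fell, beside 12.7% and 9.41% of all genes. The median log2 fold change of the list was 0.04. Ccl22, a ligand of Ccr4, was at 5.14, 5.19 and 3.35 CPM in the VAS+H2O libraries, 8.77, 20.7 and 22.8 CPM in the IMQ+H2O libraries and 18.7, 16.3 and 25.1 CPM in the IMQ+XYF libraries, and rose in IMQ+H2O by 1.92 on the log2 scale (edgeR, SE 0.380, adjusted p = 0.0177). Ccl22 is also a product of dendritic cells, which these bulk libraries do not separate from keratinocytes. Tslp, a cytokine whose receptor pairs with the Il7r chain, was at 1.92, 2.396 and 4.53 CPM, then 17.1, 13.2 and 20.01 CPM, then 19.6, 19.7 and 19.4 CPM, and rose by 2.499 (SE 0.347, adjusted p = 0.00864). Tnfsf9, the ligand of Tnfrsf9, was at 0.634, 0.576 and 0.745 CPM, then 2.07, 1.20 and 1.60 CPM, then 1.26, 1.08 and 1.48 CPM, and rose by 1.29 (SE 0.301, adjusted p = 0.0269). Cxadr rose by 0.37 and Plxnb2 by 0.31. Each of these 5 genes also passed in IMQ+XYF against VAS+H2O, which shares the VAS+H2O libraries, and none passed between the groups given imiquimod.

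Of 29 other effector and growth factor genes of these cells, 15 were tested in IMQ+H2O against VAS+H2O. Of these, 2 rose and 3 fell, beside 12.7% and 9.41% of all genes, and the median log2 fold change was −0.21. Areg, an EGF receptor ligand that keratinocytes also make, rose by 4.63 on the log2 scale (SE 0.754, adjusted p = 0.0116). It was at 18.7, 35.5 and 101.1 CPM in the IMQ+H2O libraries, and its log2 fold change was 3.69 without IMQ+H2O replicate 3, the highest. Sema4d rose by 1.01 (SE 0.145, adjusted p = 0.00890). Igf1, a growth factor that these cells and dermal fibroblasts make, fell by 3.39 (SE 0.719, adjusted p = 0.0207) and passed in 3 of the 6 fits that left out 1 library. It was at 4.19, 17.4 and 3.01 CPM in the VAS+H2O libraries and 0.691, 0.806 and 0.856 CPM in the IMQ+H2O libraries. Its log2 fold change in IMQ+H2O was −2.20 without VAS+H2O replicate 2, the highest library. In the IMQ+XYF libraries Igf1 was at 5.905, 3.45 and 2.19 CPM, above all IMQ+H2O libraries. Between these groups, 10.7% of all genes did not overlap. The study lists Igf1 among the epidermal DEGs shared by VAS+H2O against IMQ+H2O and IMQ+H2O against IMQ+XYF. Prf1, which encodes the pore protein perforin, fell by 0.87 (SE 0.252, adjusted p = 0.0487), a size like that of the CD3 genes, and passed in 0 of the 6 fits that left out 1 library. Ahr, a receptor for aryl hydrocarbons that these cells need to persist, fell by 0.69 (SE 0.101, adjusted p = 0.00937). In VAS+H2O it was at 15.9 CPM per kb, against 4.61 for Cd3g, the highest of the CD3 genes. The part of other cells in the level and fall of Ahr was not tested.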
